A study of Mus musculus with 96 samples.

Results

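Dbp, Tef and Hlf, the 3 genes of the PAR bZIP family of transcription factors, and Nfil3, their repressor counterpart, were followed by RNA-seq in mouse intestinal organoids of 4 genotypes over a synchronized circadian cycle. The 4 genes were taken by symbol from the deposited tables of expression over all genes, which hold 55536 gene IDs. Dbp (ENSMUSG00000059824) lies on chr7:45705088-45710203 on the plus strand of GRCm38, and Tef (ENSMUSG00000022389) on chr15:81802421-81826863, also on the plus strand. Hlf (ENSMUSG00000003949, chr11:90336536-90390895) and Nfil3 (ENSMUSG00000056749, chr13:52967209-52981073) are on the minus strand. Expression is given as TPM, a transcript level scaled for gene length and library depth, so that levels of different genes can be set side by side.

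DBP, TEF and HLF bind a DNA element called the D-box and activate transcription there, and NFIL3, also known as E4BP4, binds the same element and represses. In the mammalian clock, Dbp is a classical target of the activator pair CLOCK and BMAL1 at E-box elements, and Nfil3 is repressed by REV-ERB proteins at elements of their own, so that the activators and the repressor peak at different times of day in tissues such as liver. The PAR bZIP factors drive genes of xenobiotic and vitamin metabolism in mouse liver, kidney and intestine, and in the mouse intestinal epithelium Nfil3 has been linked to lipid uptake.

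The cultures, all from the mouse strain C57BL/6, were labelled APCmin/-;BMAL1-/- (Apc-min Bmal1-null below), APCmin/-;BMAL1+/+ (Apc-min), APC+/+;BMAL1-/- (Bmal1-null) and APC+/+;BMAL1+/+ (control). Apc restrains Wnt signalling, and Bmal1, whose gene symbol is Arntl, encodes the BMAL1 activator. Cultures with APCmin/- were labelled adenoma organoids and grew in EN medium, and the others were labelled organoids and grew in ENR, so a comparison across Apc genotypes is also one across media. All cultures received 0.1 µM dexamethasone, a glucocorticoid that sets cells to a common clock phase, for 1 h, and libraries are available for every 2 h at 12 times from 24 to 46 h afterwards. The tables hold 22 libraries for each genotype, 1 or 2 at each time. The labels name 2 organoid lines for each genotype but not the line behind each library, so all p-values below measure the spread between libraries, which may be technical.

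Depth ran from 28.8 M to 48.1 M uniquely mapped reads in the 88 libraries. The library numbers in the titles lie between 2 and 48 in the Apc-min genotypes and between 49 and 96 in the others, so library series and Apc genotype cannot be told apart. Reads left unmapped because their alignment was too short averaged 1.31% in Apc-min Bmal1-null and 1.299% in Apc-min libraries, against 6.00% in Bmal1-null and 6.73% in control libraries. Arntl, the targeted gene, had 2.00, 4.47 and 14.7 TPM (lowest, median, highest) in Apc-min Bmal1-null libraries, against 4.09, 11.3 and 17.3 TPM in Apc-min libraries. It had 6.31, 8.72 and 10.9 TPM in Bmal1-null libraries, against 11.3, 14.5 and 20.7 TPM in control libraries, without overlap. Apc, whose min allele is a point mutation that a transcript level does not check, averaged 15.4, 14.95, 8.80 and 9.50 TPM in the 4 genotypes in the order of the labels above. A pair of libraries went against their labels on an axis of 1021 genes that runs from 0 at the Apc-min mean to 1 at the Apc-min Bmal1-null mean, and which was set without them. The first sample of 28 h with the Apc-min Bmal1-null label (replicate 1) lay at -0.232 on it, while its 21 companions ran from 0.95 to 1.07. The first sample of 28 h with the Apc-min label (replicate 1) lay at 0.988, while its 21 companions ran from -0.297 to 0.259. Arntl in this pair was at 14.7 TPM under the Apc-min Bmal1-null label and at 4.09 TPM under the Apc-min label. The other Apc-min Bmal1-null libraries held 2.00 to 6.22 TPM of Arntl and the other Apc-min libraries 7.2 to 17.3 TPM, without overlap. The pair of 28 h libraries is called doubted below. The tests and ratios of Dbp, Tef and Nfil3 over all libraries that include them, and the counts of gene lists, are also given without them. Fits within lower-numbered libraries alone, and fits under another scaling or model, keep them. Of 14 intestinal epithelial markers, 12 averaged at least 1 TPM in each Apc-min genotype and 14 in each of the others. The other 2 were Muc2, at 0.0973 TPM in Apc-min Bmal1-null and 0.221 TPM in Apc-min organoids, and Chga, at 0.534 TPM in Apc-min Bmal1-null and 0.161 TPM in Apc-min organoids.

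The stretches before the RefSeq transcription starts of Dbp, Tef and Nfil3 are printed because Dbp and Tef moved together in time in control organoids while Nfil3 did not. Each holds the 250 bases before a start, 5′ to 3′ on the gene's strand, from the RefSeq promoter table of GRCm38.p6, in which all 4 genes were found and Tef has 2 starts. Capitals mark 3 motifs, each searched on both strands. The E-box is CACGTG, which reads alike on both strands. The REV-ERB element is searched by its core, AGGTCA, and the last motif, named for its letters, is the CCAAT box. No capitals of different motifs overlap.
Dbp, chr7:45704997-45705246, plus strand: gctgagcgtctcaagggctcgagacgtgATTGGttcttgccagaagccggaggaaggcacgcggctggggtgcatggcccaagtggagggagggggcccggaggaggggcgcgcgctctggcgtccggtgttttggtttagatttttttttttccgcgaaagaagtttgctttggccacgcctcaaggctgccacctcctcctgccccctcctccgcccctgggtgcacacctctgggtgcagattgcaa
Tef start 1, chr15:81802423-81802672, plus strand: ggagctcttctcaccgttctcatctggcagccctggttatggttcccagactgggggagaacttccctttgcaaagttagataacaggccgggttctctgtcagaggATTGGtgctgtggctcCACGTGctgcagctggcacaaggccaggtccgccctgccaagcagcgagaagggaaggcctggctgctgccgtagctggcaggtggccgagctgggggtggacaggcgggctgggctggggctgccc
Tef start 2, chr15:81811164-81811413, plus strand: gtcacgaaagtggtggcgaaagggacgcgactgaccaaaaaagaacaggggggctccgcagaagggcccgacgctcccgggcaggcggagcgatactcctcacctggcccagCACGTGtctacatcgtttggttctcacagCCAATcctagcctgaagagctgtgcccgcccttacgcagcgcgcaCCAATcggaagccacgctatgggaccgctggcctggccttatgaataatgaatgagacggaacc
Nfil3, chr13:52981040-52981289, minus strand: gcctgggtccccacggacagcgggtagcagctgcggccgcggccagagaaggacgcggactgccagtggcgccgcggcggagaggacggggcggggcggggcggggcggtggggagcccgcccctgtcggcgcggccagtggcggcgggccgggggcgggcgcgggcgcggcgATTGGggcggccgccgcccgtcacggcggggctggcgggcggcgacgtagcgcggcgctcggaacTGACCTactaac
Both Tef stretches hold an E-box, 127 and 138 bases before the start, and the stretches of Dbp, Hlf and Nfil3 hold none. Of 32851 promoters of the same length, 6.02% hold at least 1 E-box. A REV-ERB element core lies 12 bases before the Nfil3 start, in 1 of the 5 stretches, and 14.02% of all promoters hold one. CCAAT boxes occur in the stretches of Dbp, Tef and Nfil3 and not in that of Hlf, against 33.9% of all promoters. The D-box itself was searched on both strands as TTATGTAA and also as TTACGTAA, and it is in none of the 5 stretches and in 0.932% of all promoters. A match describes the letters in these windows and no more.

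Tef was the most abundant PAR bZIP transcript in every genotype, Dbp was second, and Hlf was close to 0. Tef averaged 26.5 TPM ± 4.34 in Apc-min Bmal1-null, 18.1 TPM ± 4.59 in Apc-min, 18.6 TPM ± 2.85 in Bmal1-null and 16.6 TPM ± 5.97 in control organoids (SD, n = 22 each). Dbp averaged 6.39 TPM ± 1.12, 6.42 TPM ± 3.27, 5.70 TPM ± 0.699 and 5.45 TPM ± 1.45 in the same order. Neighbours in the order of Dbp lie within their SDs, and so do Apc-min, Bmal1-null and control organoids in the order of Tef. Hlf never exceeded 0.09 TPM in either Apc-min genotype, 0.2 TPM in Bmal1-null or 0.4 TPM in control libraries. It was listed at 0 in 16 of 22 Apc-min Bmal1-null, 11 of 22 Apc-min, 1 of 22 Bmal1-null and 3 of 22 control libraries. Hlf, which acts with Dbp and Tef in other tissues, therefore stayed under the 1 TPM mean required for testing, and 3 of the 4 genes were tested. Tef made up 80.3% of the summed PAR bZIP TPM in Apc-min Bmal1-null, 74.9% in Apc-min, 76.2% in Bmal1-null and 74.1% in control organoids, on average.

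Nfil3, the repressor, had the widest spread between genotypes of the 3 tested genes. It averaged 8.02 TPM ± 1.88 in Apc-min Bmal1-null, 10.7 TPM ± 1.98 in Apc-min, 30.3 TPM ± 2.31 in Bmal1-null and 23.4 TPM ± 3.18 in control organoids (SD, n = 22 each). The order of its levels was Bmal1-null, control, Apc-min and Apc-min Bmal1-null. Its highest value in any Apc-min Bmal1-null library, 12.5 TPM, lay below its lowest value in any control library, 15.9 TPM. These genotypes differ in Apc, Bmal1, medium and library series at once, and the genes that separate likewise were not counted. Comparisons across Apc genotypes alone called 81.6% and 84.5% of all genes tested, as given below.

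**Figure D1:**
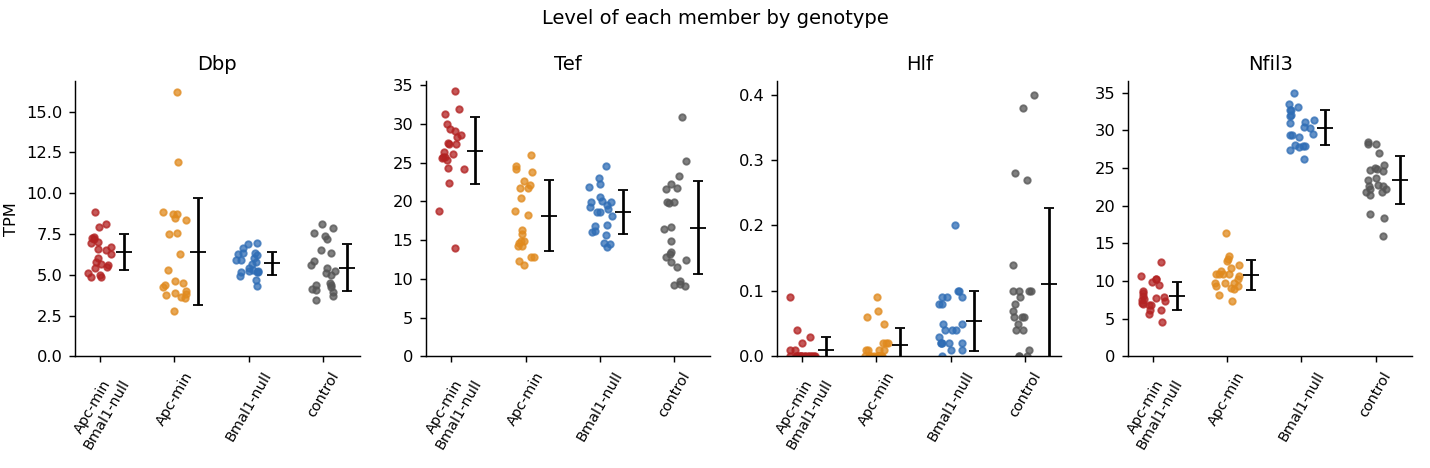
TPM (linear axis from 0, a scale for each gene) of Dbp, Tef, Hlf and Nfil3 in the 22 libraries of each genotype. Points are libraries, and the bar beside them is the mean with its SD. Nfil3 separates the genotypes most, with 8.02 and 10.7 TPM in the Apc-min genotypes and 30.3 and 23.4 TPM in the others, while Hlf stays at or below 0.4 TPM.

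In control organoids Dbp and Tef rose and fell together over the cycle. At 30 h, the time of their highest means, the libraries held 8.10 and 7.88 TPM of Dbp and 30.9 and 22.3 TPM of Tef. At 42 h Dbp was at 3.44 and 4.24 TPM, its lowest time-point mean, and at 40 h Tef was at 12.4 and 9.32 TPM, the lowest of its own. The mean of Dbp at its highest time was 2.08 times, and that of Tef 2.45 times, the mean at its lowest. The 7 control libraries from 28 to 34 h had 5.59 to 8.10 TPM of Dbp and the 7 from 38 to 44 h had 3.44 to 5.43 TPM, without overlap. Tef likewise lay between 19.9 and 30.9 TPM in the earlier stretch and between 9.08 and 13.4 TPM in the later one, again without overlap. These stretches were chosen after the values were seen, where control values were high and low, so their separation is not a test. Genes that separate likewise were not counted.

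Rhythm was tested as an F test in limma of a 24 h cosine on log2(TPM + 1), with Benjamini-Hochberg adjustment over all genes tested and a threshold of 0.05. A single cycle was sampled, so a cosine cannot be told apart from another change that happens once. Dbp had an amplitude of 0.38 ± 0.06 (SE, log2 scale, n = 22), a fitted swing of 1.69-fold between peak and trough, and a peak at 29.6 ± 0.56 h (limma adjusted p = 0.0154). Tef had an amplitude of 0.57 ± 0.09, a swing of 2.20-fold and a peak at 30.4 ± 0.55 h (limma adjusted p = 0.0154). Both passed, where 7 of 12570 genes tested, or 0.0557%, passed in control organoids. They stood at ranks 5 and 4 of all genes by p.

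Nfil3 had a later fitted peak than Dbp and Tef in control organoids, in a fit that did not pass. Its time-point mean was lowest at 30 h, with 18.3 and 21.9 TPM, and highest at 34 h, with 25.4 and 28.5 TPM. Its fitted peak was at 38.7 ± 1.01 h, with a smaller amplitude of 0.18 ± 0.05 that did not pass (limma adjusted p = 0.225). With the lower- or higher-numbered library of each time as a replicate block, the same amplitude, 0.19 ± 0.04, passed (limma adjusted p = 0.0388). Leaving out the control 30 h replicate 1 library ended both calls (limma adjusted p = 0.0717 for Dbp and 0.0672 for Tef), at amplitudes of 0.36 and 0.53. The call of Dbp was also lost without the control libraries of 28 h replicate 2 (limma adjusted p = 0.0511), 30 h replicate 2 (0.0621) or 42 h replicate 1 (0.0604). In the lower- and higher-numbered libraries taken alone, with 11 libraries each and 0 genes called, the amplitude was 0.43 and 0.33 for Dbp and 0.62 and 0.61 for Tef, and neither gene passed. The call of Dbp was also lost with median-of-ratios scaling (limma adjusted p = 0.0653) and quantile normalization (0.122), and that of Tef with a linear trend added (limma adjusted p = 0.188). With time as a factor neither passed (limma adjusted p = 0.414 for Dbp and 0.566 for Tef).

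**Figure D2:**
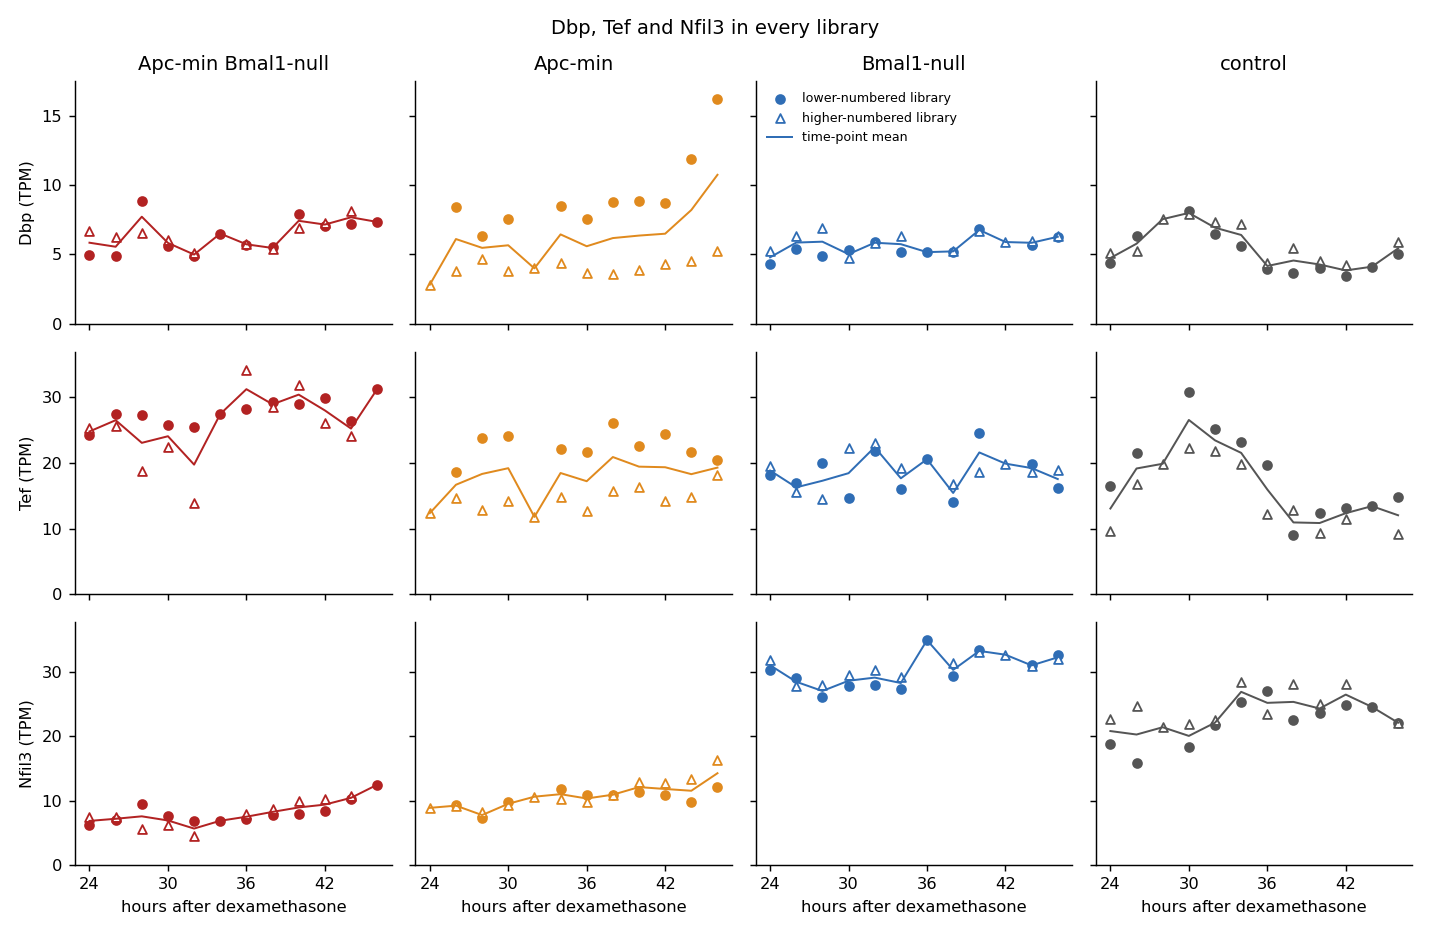
TPM (linear axis from 0) of Dbp, Tef and Nfil3 against hours after dexamethasone in each genotype. Filled circles are the lower-numbered and open triangles the higher-numbered library of a time, and lines join time-point means. In control organoids Dbp and Tef crest at 30 h, and in Apc-min organoids the lower-numbered libraries lie above the higher-numbered ones for Dbp and Tef at all 10 times that have both.

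In Bmal1-null organoids neither Dbp nor Tef passed the rhythm test. Dbp ranged from 4.34 to 6.92 TPM (median 5.73) in Bmal1-null libraries, against 3.44 to 8.10 TPM (median 5.17) in control libraries. Tef ranged from 14.1 to 24.6 TPM (median 18.8) in Bmal1-null libraries, against 9.08 to 30.9 TPM (median 15.7) in control libraries. Both thus stayed inside the control range. From 28 to 34 h Dbp lay between 4.71 and 6.92 TPM in Bmal1-null organoids and from 38 to 44 h between 5.19 and 6.86 TPM, with full overlap. Tef lay between 14.5 and 22.99 TPM and then between 14.1 and 24.6 TPM. The stretches were chosen on the control values, which favours a contrast between the genotypes. The fitted amplitude in Bmal1-null organoids was 0.06 ± 0.05 for Dbp (limma adjusted p = 0.996) and 0.05 ± 0.06 for Tef (limma adjusted p = 0.996). Nfil3 had an amplitude of 0.11 ± 0.03 with a peak at 41.5 h (limma adjusted p = 0.267). By this test 0 genes, or 0%, passed in Bmal1-null organoids, with 864 of 12550 at an unadjusted p under 0.05 and 25 passing when time was a factor.

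The difference between the rhythms was itself tested, by letting the cosine differ between the genotypes in a fit of their 44 libraries. Dbp differed by a vector of amplitude 0.44 ± 0.07 on the log2 scale (limma adjusted p = 0.0363), rank 1 of all genes, and Tef by 0.59 ± 0.11 (limma adjusted p = 0.041), rank 5. For Nfil3 the difference was 0.12 ± 0.05 and did not pass (limma adjusted p = 0.826). In this comparison 5 of 12654 genes, or 0.0395%, passed. The sizes held in every alternative, at 0.35 to 0.52 for Dbp and 0.51 to 0.69 for Tef, but the calls did not. Neither gene passed when genes of any level were tested, when a linear trend was added, with all 4 genotypes in the fit or within either library set. Dbp also missed the threshold with median-of-ratios scaling (limma adjusted p = 0.871), and Tef with a pseudocount of 0.1 TPM (limma adjusted p = 0.0523). Leaving out 1 library ended the call of Tef in 29 of 44 refits (limma adjusted p up to 0.163). It ended that of Dbp in 10 of 44, with limma adjusted p up to 0.0612: without the control libraries of 26 h replicate 1, 30 h replicates 1 and 2, 32 h replicates 1 and 2 and 34 h replicate 2, or the Bmal1-null libraries of 30 h replicate 1, 34 h replicate 1 and 40 h replicates 1 and 2.

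**Figure D3:**
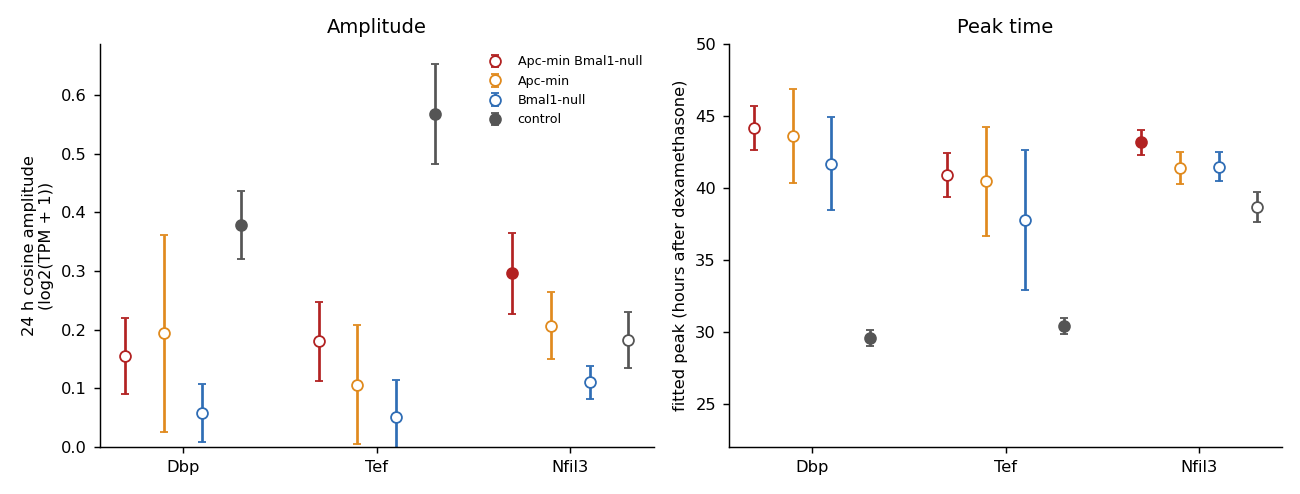
Fitted 24 h cosine amplitude on the log2(TPM + 1) scale, left, and fitted peak time in hours after dexamethasone, right, for Dbp, Tef and Nfil3 in each genotype. Bars are standard errors (n = 22), and filled symbols passed the rhythm test. The Bmal1-null amplitudes of Dbp, 0.06, and Tef, 0.05, lie below the control ones, 0.38 and 0.57. In control organoids the fitted peaks of both near 30 h precede that of Nfil3 at 38.7 h, whose fit did not pass.

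The mean level over the cycle was compared in limma while each time was given its own term. Nfil3 rose in Bmal1-null organoids, at 26.2, 30.3 and 35 TPM (lowest, median, highest), against 15.9, 23.1 and 28.5 TPM in control organoids. Its mean was higher in Bmal1-null organoids at 12 of 12 times, and 16 of 22 Bmal1-null libraries lay above every control library. The difference was 0.39 ± 0.04 on the log2(TPM + 1) scale (limma adjusted p = 2.56e-08), or 1.31-fold, and it ranged from 0.37 to 0.41 when single libraries were left out. It was 1 of 450 genes called among 12654, or 3.56%, of which 2.09% of all genes rose and 1.47% fell.

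Dbp and Tef did not pass in mean level between Bmal1-null and control organoids. The difference was 0.06 ± 0.07 for Dbp (limma adjusted p = 1) and 0.22 ± 0.10 for Tef (limma adjusted p = 0.418). Behind these averages the sign of the difference changed with time. Dbp averaged higher in Bmal1-null than in control organoids at 8 of 12 times, namely 24, 26 and 36 to 46 h, and lower from 28 to 34 h. Tef averaged higher at 7 of 12 times, 24 h and 36 to 46 h, and lower from 26 to 34 h. The time-point mean of Nfil3 varied by an SD of 2.38 TPM in Bmal1-null and 2.45 TPM in control organoids, less than its difference between them of 30.3 and 23.4 TPM.

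In the Apc-min genotypes neither Dbp nor Tef passed the rhythm test. Of all genes, 2.59% passed in Apc-min Bmal1-null and 12% in Apc-min organoids. The amplitude of Dbp was 0.15 ± 0.06 in Apc-min Bmal1-null organoids (limma adjusted p = 0.416) and 0.19 ± 0.17 in Apc-min organoids (limma adjusted p = 0.672). That of Tef was 0.18 ± 0.07 in Apc-min Bmal1-null organoids (limma adjusted p = 0.314) and 0.11 ± 0.10 in Apc-min organoids (limma adjusted p = 0.719). With the replicate block the amplitudes in Apc-min organoids were 0.17 ± 0.07 for Dbp (limma adjusted p = 0.178) and 0.08 ± 0.05 for Tef (0.351). At 24 and 32 h Apc-min organoids have a higher-numbered library alone, so library set and time are partly mixed there. Without the doubted libraries the amplitude of Dbp was 0.18 ± 0.05 in Apc-min Bmal1-null organoids (limma adjusted p = 0.0614) and 0.21 ± 0.17 in Apc-min organoids (0.686), and that of Tef was 0.20 ± 0.07 (0.124) and 0.16 ± 0.10 (0.524). Nfil3 climbed toward the end of the series in both, to 12.5 TPM at 46 h in the single Apc-min Bmal1-null library and to 12.1 and 16.4 TPM in the Apc-min libraries.

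Nfil3 had an amplitude of 0.30 ± 0.07 with a peak at 43.2 h in Apc-min Bmal1-null organoids, which passed (limma adjusted p = 0.0471), 1 of the 2.59% of genes that did. Its call was lost with a linear trend added (limma adjusted p = 0.729) and in 19 of 22 refits without 1 library, all except those without replicate 1 of 24, 28 or 30 h (limma adjusted p up to 0.104). The 28 h library among these is the doubted one, without which the amplitude was 0.33 ± 0.06 (limma adjusted p = 0.00537). In Apc-min organoids its amplitude was 0.21 ± 0.06 with a peak at 41.4 h (limma adjusted p = 0.0507), beside a background of 12% of genes called, and with the replicate block it passed (limma adjusted p = 0.021). It also passed without 1 of the libraries of 30, 34 or 44 h replicate 1 or of 36 or 46 h replicate 2 (limma adjusted p down to 0.0226). Without the doubted library it was 0.18 ± 0.06 (limma adjusted p = 0.123), with a linear trend 0.01 (limma adjusted p = 1) and with quantile normalization 0.11 (0.368). The rhythm difference between Apc-min Bmal1-null and Apc-min organoids passed for 0 of 12885 genes, or 0%, and 880 had an unadjusted p under 0.05. It was 0.05 ± 0.18 for Dbp, 0.08 ± 0.12 for Tef and 0.15 ± 0.09 for Nfil3. Without the doubted libraries it was 0.03 ± 0.19, 0.05 ± 0.12 and 0.17 ± 0.08 in the same order, and none of the 3 passed (limma adjusted p of at least 0.995).

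Within Apc-min organoids the library pairs split by library number for the PAR bZIP factors and not for Nfil3. Dbp had 6.29, 8.60 and 16.2 TPM (lowest, median, highest) in the 10 lower-numbered libraries and 2.81, 3.93 and 5.27 TPM in the 12 higher-numbered ones, without overlap. At each of the 10 times with both, the lower-numbered library was higher, by 1.35 to 3.08 times. Tef had 18.7, 22.3 and 26.0 TPM in lower-numbered and 11.8, 14.5 and 18.2 TPM in higher-numbered Apc-min libraries, also without overlap. The difference in limma was 0.95 ± 0.09 for Dbp (adjusted p = 1.05e-05) and 0.57 ± 0.07 for Tef (adjusted p = 5.34e-05), both lower-numbered minus higher-numbered on the log2 scale. For Nfil3 it was -0.09 ± 0.07 (limma adjusted p = 0.301). As 59.5% of all genes differed between these sets, a call here is near the background. Without the doubted library the difference was 1.02 ± 0.07 for Dbp, 0.54 ± 0.07 for Tef and -0.08 ± 0.07 for Nfil3, beside 67.1% of all genes. Whether the sets are the 2 organoid lines was not tested, since the labels do not give the line.

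The lower-numbered Apc-min libraries also carried the largest late rise of Dbp, to 11.9 TPM at 44 h and 16.2 TPM at 46 h, where the higher-numbered ones had 4.49 and 5.27 TPM. Elsewhere the sets differed less. In control organoids the share of genes that differed between sets was 24.4%, with Tef higher by 0.33 ± 0.10 in lower-numbered libraries (limma adjusted p = 0.0345). In Bmal1-null organoids it was 0.502% and in Apc-min Bmal1-null organoids 2.06%, and 0 of the 3 tested genes were among them. Without the doubted library the share in Apc-min Bmal1-null organoids was 5.73%, again with 0 of the 3.

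In mean level, loss of Bmal1 in the Apc-min background went with more Tef and less Nfil3. Tef had 13.96, 26.9 and 34.3 TPM (lowest, median, highest) in Apc-min Bmal1-null organoids, against 11.8, 17.3 and 26.0 TPM in Apc-min organoids. Its mean was higher in Apc-min Bmal1-null organoids at 12 of 12 times, among them 24 and 32 h, where Apc-min organoids have a higher-numbered library alone. In Apc-min Bmal1-null organoids Nfil3 stood at 4.51, 7.69 and 12.5 TPM, against 7.29, 10.8 and 16.4 TPM in Apc-min organoids, and its mean was lower at 12 of 12 times. Both sets of ranges overlap. The difference was 0.59 ± 0.09 for Tef (limma adjusted p = 1.45e-06) and -0.35 ± 0.06 for Nfil3 (limma adjusted p = 1.06e-05), log2 scale. Both were called, in a comparison that called 60.3% of 12885 genes, 24.6% higher and 35.7% lower. Without the doubted libraries they were 0.61 ± 0.08 and -0.38 ± 0.05. The size for Tef depended on the library set, at 0.31 ± 0.06 in the lower-numbered and 0.77 ± 0.09 in the higher-numbered libraries alone. For Nfil3 it was -0.27 ± 0.10 and -0.40 ± 0.08 in the same order.

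For Dbp the same comparison gave 0.15 ± 0.13 over all libraries (limma adjusted p = 0.317), 0.14 ± 0.13 without the doubted ones (0.375), and opposite calls within the library sets. It was -0.40 ± 0.12 in the lower-numbered libraries alone (limma adjusted p = 0.0137) and 0.60 ± 0.07 in the higher-numbered ones alone (limma adjusted p = 9.91e-06). The lower-numbered fit includes both doubted libraries. Dbp itself averaged 6.36 and 6.42 TPM in the lower- and higher-numbered Apc-min Bmal1-null libraries, against 9.27 and 4.05 TPM in the Apc-min ones. Between the sets of Apc-min Bmal1-null libraries the difference in Dbp was -0.05 ± 0.08 (limma adjusted p = 0.732). Without the doubted library it was -0.09 ± 0.07 (limma adjusted p = 0.428).

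**Figure D4:**
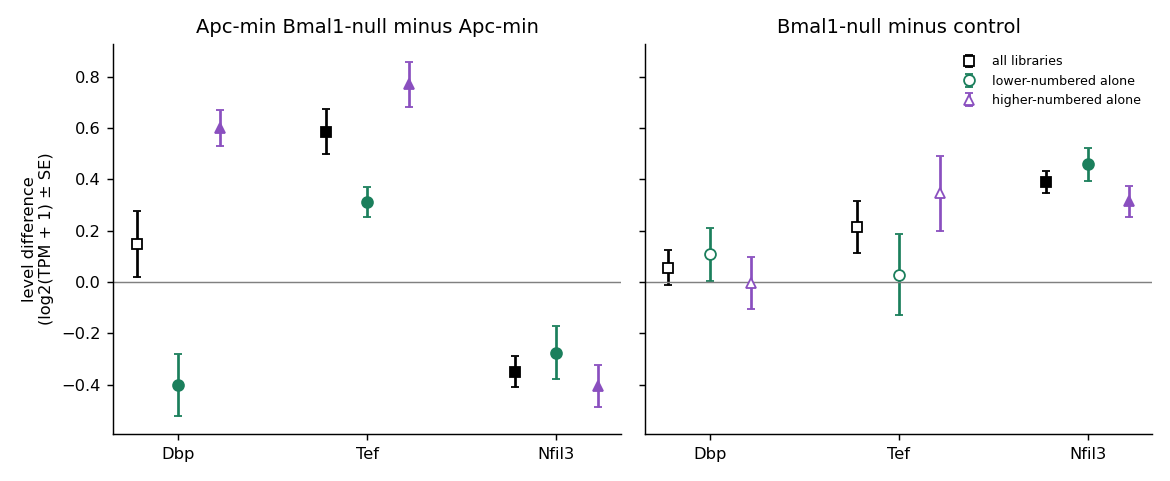
Difference in mean level with loss of Bmal1, on the log2(TPM + 1) scale with its SE, in the Apc-min background (left) and with wild-type Apc (right), for Dbp, Tef and Nfil3. Squares use all libraries, circles the lower-numbered and triangles the higher-numbered ones alone, and filled symbols have an adjusted p under 0.05. Dbp takes opposite signs in the Apc-min sets (-0.40 and 0.60), and Nfil3 lies below 0 at left and above 0 at right in every set.

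Across Apc genotypes Nfil3 fell. It had 7.29, 10.8 and 16.4 TPM (lowest, median, highest) in Apc-min organoids, against 15.9, 23.1 and 28.5 TPM in control organoids, and 21 of 22 Apc-min libraries lay below every control library. The difference was -1.06 ± 0.06 (limma adjusted p = 4.05e-19), 0.48-fold on the TPM + 1 scale. In Apc-min Bmal1-null organoids its highest value of 12.5 TPM lay below the lowest Bmal1-null value of 26.2 TPM, and the difference was -1.83 ± 0.06 (limma adjusted p = 7.84e-26). Without the doubted libraries these differences were -1.05 ± 0.05 and -1.85 ± 0.06. These comparisons called 81.6% of genes tested between Apc-min and control organoids (50.5% higher, 31.1% lower) and 84.5% between Apc-min Bmal1-null and Bmal1-null organoids (45.7% higher, 38.8% lower). They are also comparisons of medium and library series. In bulk organoids, fewer cells that express a gene and less of its RNA in each cell cannot be told apart.

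Dbp and Tef moved less across Apc genotypes. Between Apc-min and control organoids the difference was 0.10 ± 0.14 for Dbp (limma adjusted p = 0.527) and 0.15 ± 0.13 for Tef (limma adjusted p = 0.284), and with libraries scaled by median of ratios it was -0.04 for Dbp and -0.01 for Tef. Without the doubted library it was 0.10 ± 0.15 for Dbp (limma adjusted p = 0.54) and 0.13 ± 0.13 for Tef (0.342). For Dbp it was 0.84 ± 0.15 in the lower-numbered libraries alone (limma adjusted p = 0.000315) and -0.44 ± 0.09 in the higher-numbered ones (limma adjusted p = 0.000227). For Tef it was 0.41 ± 0.17 in the lower-numbered libraries alone (limma adjusted p = 0.0459) and -9e-04 in the higher-numbered ones (0.996). Between Apc-min Bmal1-null and Bmal1-null organoids Tef was higher by 0.47 ± 0.07 (limma adjusted p = 4.5e-07). Its values were 13.96, 26.9 and 34.3 TPM (lowest, median, highest) in Apc-min Bmal1-null organoids, against 14.1, 18.8 and 24.6 TPM in Bmal1-null organoids. Dbp was higher there by 0.14 ± 0.05 (limma adjusted p = 0.00895), or 1.102-fold, a call that was lost under the same scaling (0.08 ± 0.06, limma adjusted p = 0.21). Without the doubted library the difference was 0.45 ± 0.07 for Tef (limma adjusted p = 9.78e-07) and 0.12 ± 0.05 for Dbp (0.0151). Under that scaling the median over all genes between Apc-min and control organoids was 0.01 on the log2 scale, where it was 0.17 in the TPM as deposited.

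The level of Nfil3 differed with Bmal1 loss in opposite directions in the 2 Apc backgrounds, and that contrast was tested as an interaction over 88 libraries. The backgrounds also differ in medium and library series, so an interaction with Apc cannot be told apart from one with these. Nfil3 was higher by 0.39 ± 0.04 in Bmal1-null than in control organoids and lower in Apc-min Bmal1-null than in Apc-min organoids (-0.35 ± 0.06). The interaction was -0.75 ± 0.08 (limma adjusted p = 4.42e-13), in a comparison that called 47.7% of 13846 genes, 18.1% with a higher and 29.6% with a lower value. It stayed between -0.78 and -0.73 in the 88 refits without 1 library and was -0.79 ± 0.07 without the doubted libraries. For Tef the interaction was 0.33 ± 0.15 (limma adjusted p = 0.0663), and it passed under median-of-ratios scaling (0.41 ± 0.12, limma adjusted p = 0.00391) and in 9 of 88 refits without 1 library. For Dbp it was 0.06 ± 0.15 (limma adjusted p = 0.773). Without the doubted libraries it was 0.34 ± 0.15 for Tef (limma adjusted p = 0.0533) and 0.04 ± 0.15 for Dbp (0.841).

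The sum of Dbp, Tef and Hlf relative to Nfil3 gives the transcript balance of D-box activators and their repressor. The ratio averaged 4.21 ± 0.598 in Apc-min Bmal1-null, 2.35 ± 0.787 in Apc-min, 0.806 ± 0.0936 in Bmal1-null and 0.986 ± 0.423 in control organoids (SD, n = 22 each). It averaged, without the doubted libraries, 4.23 ± 0.606 in Apc-min Bmal1-null and 2.26 ± 0.695 in Apc-min organoids (SD, n = 21 each). In Bmal1-null organoids its time-point mean lay between 0.972 at 32 h and 0.680 at 38 h. In control organoids it was highest at 30 h, at 1.76, and lowest at 38 h, at 0.609. Every Apc-min Bmal1-null library, at 3.03 or more, was above every control library, at 2.15 or less, across genotypes that also differ in medium and library series. In Apc-min organoids the ratio split by library set. It lay between 2.60 and 4.13 in lower-numbered libraries, or up to 3.45 without the doubted one, and between 1.43 and 2.13 in higher-numbered ones. The ratio is built from the genes described above and adds no test of its own.

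**Figure D5:**
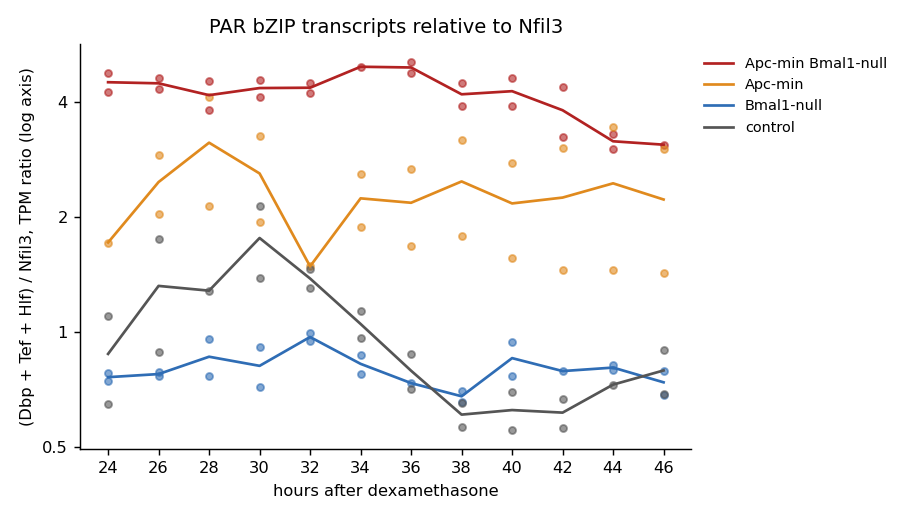
Ratio of the summed TPM of Dbp, Tef and Hlf to the TPM of Nfil3 (log axis) against hours after dexamethasone. Points are libraries and lines join time-point means. The Apc-min Bmal1-null line lies highest, the Bmal1-null line stays between 0.680 and 0.972, and the control line peaks at 1.76 at 30 h and reaches 0.609 at 38 h.

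Library by library, Dbp and Tef went together most in Apc-min and control organoids. Pearson's r between their log2(TPM + 1) values was 0.23 in Apc-min Bmal1-null, 0.80 in Apc-min, 0.02 in Bmal1-null and 0.67 in control organoids, over 22 libraries each that share time points and sets. Between Dbp and Nfil3 it was 0.65 in Apc-min Bmal1-null, 0.10 in Apc-min, 0.22 in Bmal1-null and -0.35 in control organoids. Spearman's rho between Dbp and Tef was 0.18, 0.78, -0.08 and 0.65 in that order of genotypes. Pearson's r between Dbp and Tef without the doubted libraries was 0.22 in Apc-min Bmal1-null and 0.82 in Apc-min organoids, and between Dbp and Nfil3 0.64 and 0.14. In Apc-min organoids both Dbp and Tef split by library set without overlap, as given above, and r over all libraries there includes that split. These are descriptions of libraries that share their time course and sets.

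Among 13 upstream regulators of the PAR bZIP factors and Nfil3, 11 were tested, and 5 rose and 3 fell in Bmal1-null against control organoids, with a median difference of -0.02 beside 0.00 over all genes. Of all genes tested there, 3.56% were called, 2.09% higher and 1.47% lower. Arntl, the targeted gene itself, is 1 of the 3 that fell (-0.70). Nr1d1 and Nr1d2, which encode the REV-ERB repressors of Nfil3, fell (log2 differences of -2.38 and -1.92, limma adjusted p = 7.77e-20 and 3.42e-15). Nr1d1 was at 1.40 to 3.25 TPM in Bmal1-null libraries, against 7.65 to 28.2 TPM in control libraries, without overlap. In Apc-min Bmal1-null against Apc-min organoids, where Nfil3 was lower, 5 of the 11 rose and 4 fell, as they did without the doubted libraries, with a median of 0.05 beside -0.04 over all genes. In that comparison 60.3% of all genes were called, 24.6% higher and 35.7% lower. Npas2, a paralog of Clock, rose by 1.60 ± 0.24, Nr1d2 fell by 1.60 ± 0.15 and Cry1 rose by 1.38 ± 0.13. The part of these regulators in the level of Nfil3 was not tested.

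The rhythm of the regulators in control organoids is set beside that of Dbp and Tef. Of the 11 tested, 2 passed in control organoids, where 0.0557% of all genes did, among them Nr1d1 with a peak at 24.99 h. The median amplitude of the list was 0.28, beside 0.09 over all genes. In Bmal1-null organoids 0 of 11 passed, where 0 of 12550 genes tested did, so this count is not particular to the regulators. Their median amplitude there was 0.06 beside 0.07 over all genes.

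Clock genes that carry D-boxes formed a list of 10, with 8 tested, and all of them but Per3 and Ciart are also on the upstream list. In Bmal1-null against control organoids 3 rose and 3 fell, with a median of -0.14 beside 0.00 over all genes, of which 2.09% rose and 1.47% fell. Nr1d1 and Nr1d2 were among those that fell. In Apc-min Bmal1-null against Apc-min organoids 3 rose, among them Cry1 by 1.38 and Per2 by 1.18, repressors of CLOCK and BMAL1, and 2 fell, with a median of -0.11 beside -0.04 over all genes. These 5 of 8 are a share near the 60.3% of all genes called there, and without the doubted libraries 3 rose and 4 fell.

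Genes reported as PAR bZIP targets, mostly in mouse liver, numbered 17, of which 13 were tested in Bmal1-null against control organoids. There 1 rose and 3 fell, with a median of -0.04 beside 0.00 over all genes, of which 2.09% rose and 1.47% fell. Cyp3a11, a drug-metabolizing cytochrome P450, rose by 1.23 ± 0.06 (limma adjusted p = 2.57e-17), at 10.8 to 19.5 TPM in Bmal1-null libraries, against 3.26 to 7.43 TPM in control libraries. Ces1d, a carboxylesterase, fell by 1.00 ± 0.09 (limma adjusted p = 6.39e-10), at 0.78 to 2.33 TPM in Bmal1-null libraries, against 1.2 to 8.15 TPM in control libraries, and was the single target that passed the rhythm test in control organoids, with a peak at 36.8 h. Abcb1a, a drug efflux pump, fell by 0.31 ± 0.09 (limma adjusted p = 0.0445). With median-of-ratios scaling 3 targets rose and 3 fell. The Ces and Cyp genes belong to families of close copies, between which reads can be divided wrongly, so their values are uncertain.

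Between Apc-min and control organoids 12 of 14 tested targets fell and 1 rose, with a median of -2.25 beside 0.17 over all genes, of which 81.6% were called and 31.1% fell, and 13 of 13 fell with median-of-ratios scaling. In Apc-min Bmal1-null against Bmal1-null organoids 11 of 13 fell and 1 rose, with a median of -2.42 beside 0.07 over all genes, of which 84.5% were called and 38.8% fell. Both counts were the same without the doubted libraries. Ces2a, a carboxylesterase, was at 0.15 to 1.33 TPM in Apc-min libraries, against 76.1 to 154 TPM in control libraries. Sult1d1, a sulfotransferase, was at 0 to 0.86 TPM in Apc-min libraries, against 45.02 to 106 TPM in control libraries. Slc15a1, the intestinal peptide transporter, was at 0 to 0.65 TPM in Apc-min libraries, against 25.7 to 62.5 TPM in control libraries. Of the 14 epithelial markers, 12 had a lower mean in Apc-min than in control organoids. The exceptions were Cdh1, at 332 TPM in Apc-min and 329 TPM in control organoids, and Krt18, at 2389 TPM in Apc-min and 1083 TPM in control organoids. In Apc-min Bmal1-null against Bmal1-null organoids 12 of 14 were likewise lower, all but Krt18 and Krt19. The summed epithelial markers had medians of 13030 TPM in Apc-min Bmal1-null and 11380 TPM in Apc-min, against 18130 TPM in Bmal1-null and 17840 TPM in control organoids. Their part in the fall of the targets was not tested.

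The Nfil3-linked lipid genes were 3, of which Scd1, a fatty acid desaturase, was tested in every comparison, while Cd36 and Fabp4 stayed under the filter. Scd1 was not called between Bmal1-null and control organoids (-0.17 ± 0.09, limma adjusted p = 0.572). It fell by 0.49 ± 0.14 in Apc-min Bmal1-null against Apc-min organoids (limma adjusted p = 0.00317). Of 6 C/EBP-related factors, bZIP proteins whose sites resemble the D-box, 5 were tested. In Bmal1-null against control organoids 0 of 5 passed in limma, beside 3.56% of all genes, and in Apc-min against control organoids 5 of 5 fell, with differences of -1.96 ± 0.21 for Ddit3, -1.64 ± 0.12 for Cebpa and -1.11 ± 0.06 for Cebpd, beside 31.1% of all genes that fell. In Apc-min Bmal1-null against Bmal1-null organoids 5 of 5 also fell, with a median of -1.08 beside 0.07 over all genes, of which 38.8% fell. Both counts were the same without the doubted libraries.

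Markers of immune cells, which can express Nfil3, were low. Immune markers summed to a median of 7.36 TPM in Apc-min Bmal1-null, 12.1 TPM in Apc-min, 3.36 TPM in Bmal1-null and 3.23 TPM in control organoids. Cd68 made up most of this in the Apc-min genotypes, at 7.65 and 13.2 TPM, while Ptprc, the pan-leukocyte marker, averaged 0.123 TPM or less in every genotype. Il7r and Ncr1 were at 0 in every library. Itgam averaged 0.0423 TPM in Apc-min Bmal1-null and 0.0764 TPM in Apc-min organoids, against 1.38 TPM in Bmal1-null and 1.285 TPM in control organoids. Ptprc averaged 0.045 and 0.03 TPM in these Apc-min genotypes, against 0.123 and 0.1 TPM in the others. Nfil3 was lower in the Apc-min genotypes, where Cd68 was higher and Itgam and Ptprc were lower. Acta2, a smooth muscle marker, averaged 7.38 TPM in Apc-min Bmal1-null and 2.07 TPM in Apc-min organoids, against 0.00727 TPM in Bmal1-null and 0.00455 TPM in control organoids. Cdh5, an endothelial marker, averaged 2.06 TPM in Apc-min Bmal1-null and 7.18 TPM in Apc-min organoids, against 0 TPM in Bmal1-null and 0.000455 TPM in control organoids. The other smooth muscle markers, Myh11 and Des, averaged at most 0.0141 and 0.0573 TPM in any genotype. Of the other endothelial markers, Kdr averaged at most 0.00364 TPM in any genotype. Pecam1 averaged 0.0864 TPM in Apc-min Bmal1-null and 0.035 TPM in Apc-min organoids, against 0.263 TPM in Bmal1-null and 0.256 TPM in control organoids. The part of any non-epithelial cells in the level of Nfil3 was not tested.

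The genes whose pattern over control libraries was closest to each PAR bZIP factor and Nfil3 were ranked by Pearson's r on log2(TPM + 1) among the 9516 genes that averaged at least 5 TPM. Closest to Tef were Thg1l (0.89), Cry2 (0.88), Sowaha (0.88), Tmem246 (0.88) and Ccdc134 (0.88). Closest to Dbp were Aqp11 (0.73), Mogat2 (0.72), Slc2a5 (0.70), Nr1i3 (0.70) and Acy1 (0.69). Closest to Nfil3 were Adora1 (0.83), Stc2 (0.80), Rcor2 (0.78), Ass1 (0.77) and Efna1 (0.75). Over all 88 libraries the closest was Zfyve21 for Nfil3 (0.97), Ank for Tef (0.80) and Gstm4 for Dbp (0.76), and these values include the doubted libraries and carry the difference between Apc genotypes and library series. Nr1i3, the fourth gene beside Dbp, is on the list of reported PAR bZIP targets, and Cry2, the second beside Tef, on that of upstream regulators.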

How the data were processed

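The authors deposited 1 table for each genotype with TPM over all genes, from STAR 2.5, RSEM 1.3.0 and GRCm38, which the submitters' processing notes name without role or order. Reads were single-end from directional libraries, per the labels' protocols. The authors also deposited a read count per library and the percent of reads left unmapped because their alignment was too short, per the file headers; 8 of 96 labelled libraries, marked there as not used, are not analysed here, and 0 value columns lacked a sample. Gene symbols came from the reference table for 55450 of 55536 IDs.

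Values were analysed as log2(TPM + 1), with a pseudocount of 1 TPM that understates changes of low genes, for genes averaging at least 1 TPM in a compared genotype. TPM keeps no depth, so no count test was run. Fits used limma 3.58.1 with a trended prior in R 4.3.3, and summaries Python 3.11.15, pandas 2.3.3 and numpy 2.4.6; figures used matplotlib 3.10.9. The fits were also run on simulated data in which libraries varied independently. That simulation held no difference between library sets, so it does not bear on p-values where the sets differ. Rhythm was a 24 h cosine, level the genotype term beside each time, and p-values were Benjamini-Hochberg adjusted over all genes tested. The named genes are Dbp, Tef, Hlf and Nfil3, Arntl and Apc as label checks, up to 3 genes of each list with the largest difference among those called, and the 5 closest in pattern. The values of 1 listed gene are not reported here, though list counts include it. The members and lists were chosen with earlier results of these data known. Replicate numbers were given in accession order and pair nothing; the lower- or higher-numbered library of each time, from the titles, served as the replicate block.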

Additional observations from a re-analysis of the deposited data

Results flagged for a closer look

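The rhythm of Dbp differed between Bmal1-null and control organoids by a tested difference of 0.44 ± 0.07 on the log2 scale (limma adjusted p = 0.0363), with amplitudes of 0.06 in Bmal1-null and 0.38 in control organoids. This call was lost in 10 of 44 refits without 1 library and under other settings given above.

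The rhythm of Tef differed between the same genotypes by 0.59 ± 0.11 (limma adjusted p = 0.041), with amplitudes of 0.05 in Bmal1-null and 0.57 in control organoids. This call was lost in 29 of 44 refits without 1 library and under other settings given above.

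The level of Nfil3 differed with Bmal1 loss in opposite directions in the 2 Apc backgrounds, with a tested interaction of -0.75 ± 0.08 (limma adjusted p = 4.42e-13). It was built from -0.35 in Apc-min Bmal1-null against Apc-min organoids and 0.39 in Bmal1-null against control organoids. This interaction called 47.7% of 13846 genes, and the backgrounds also differ in medium and library series.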

How the results depend on the processing

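Under other settings, single left-out libraries aside, 263 values of single genes kept their side of the threshold without a change of sign. A further 33 lost and 9 gained a call, and 7 changed sign. Amplitudes have no sign, so only level differences and the interaction could change it. Peak times were not counted, and with a linear trend that of Dbp in Apc-min organoids moved from 43.6 to 28.1 h. All 7 changes of sign are in small or set-dependent level differences or the interaction. With libraries scaled by median of ratios, Apc-min against control gave -0.036 for Dbp and -0.0059 for Tef. In the higher-numbered libraries alone it gave -0.44 for Dbp and -9e-04 for Tef, and Bmal1-null against control gave -0.0033 for Dbp. In the lower-numbered libraries alone Apc-min Bmal1-null against Apc-min gave -0.40 and the interaction -0.57 for Dbp. The cause was not tested.

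The number of the 4 genes called moved as follows. For the control rhythm it was 2, but 1 with median-of-ratios scaling, a linear trend or quantile normalization, and 0 with time as a factor or in either library set alone. For the Apc-min rhythm it was 0, but 1 with a pseudocount of 0.1 TPM, a filter at 5 TPM or the replicate block. For the Apc-min Bmal1-null rhythm it was 1, but 0 with no filter, a filter at 5 TPM, median-of-ratios scaling, a linear trend, time as a factor, quantile normalization or either set alone. For the rhythm difference of Bmal1-null against control it was 2, but 1 with a pseudocount of 0.1 TPM or median-of-ratios scaling, and 0 with no filter, a linear trend, all 4 genotypes or either set alone. For the level of Apc-min against control it was 1, but 2 with no filter, where Hlf is also called, 3 in lower- and 2 in higher-numbered libraries alone. For the level of Apc-min Bmal1-null against Apc-min it was 2, but 3 in either set alone, and against Bmal1-null it was 3, but 4 with no filter, where Hlf is also called, and 2 with median-of-ratios scaling, all 4 genotypes or either set alone. For the interaction it was 1, but 2 with median-of-ratios scaling or in either set alone. Leaving out single libraries gave 0 to 2 for the control rhythm, 0 to 1 for each Apc-min genotype's rhythm, 0 to 2 for the rhythm difference and 1 to 2 for the interaction.

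With the replicate block Nfil3 gained its rhythm call in control (limma adjusted p = 0.0388) and in Apc-min organoids (0.021), genes called in control organoids numbered 289 in place of 7, and no other call of the 3 tested genes changed. The block is a hint from library numbers, not from the design. The authors' quantile-normalized tables were not run, since their columns name times and not libraries, and quantile normalization computed here, chosen after seeing the data like the fits within sets, took their place. With 10 to 12 libraries in a set, and 1 cycle, precision is limited by the number of libraries, and TPM carries no depth.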
